A study of Mus musculus with 6 samples.

Results

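Hox genes of the clusters A to D are described here by the DNA methylation measured around them in murine quadriceps muscle. A region was taken where its RefSeq transcript carries a symbol made of Hoxa, Hoxb, Hoxc or Hoxd and a paralogue number and where at least 3 cytosine positions were measured. This left 29 regions of 28 genes, of 10021 regions with at least 3 positions, and 691 of all 268725 positions listed. The Hoxa cluster on chromosome 6 gave 9 regions with 212 positions, the Hoxb cluster on chromosome 11 gave 8 with 167, the Hoxc cluster on chromosome 15 gave 6 with 106, and the Hoxd cluster on chromosome 2 gave 6 with 206. Just inside the minimum were Hoxb5 and Hoxc4 with 3 positions each, at 31.0% and 44.4%. Just outside it were Hoxa7 and Hoxd4 with 2 positions each, at 71.9% and 71.8%, and they entered no count below.

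Reduced representation bisulfite sequencing (RRBS), which reads methylation in restriction fragments rich in CpG, was carried out on quadriceps DNA of C57BL/6 mice. The exercised group (3 samples) ran on a motor-driven treadmill during 4 weeks, and the sedentary group (3 samples) did not train. Per the labels, DNA was prepared 3 hours after the final training session, and no age, sex or further treatment is given for either group. Whole muscle was used, so each level is an average over muscle fibre nuclei and every other cell of the tissue, and a change in the share of a cell type cannot be told apart from a change within cells. The labels do not tell whether each sample is a different mouse, so the p-values reflect sample-to-sample spread, which may be technical.

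Hox proteins are homeodomain transcription factors that give cells their position along the body axis and along the limb. Within a cluster the genes stand in the order in which they act, and genes with the same number in different clusters are paralogues: low numbers (anterior, groups 1 to 3) act towards the head, high numbers (posterior, groups 9 to 13) towards the tail and, in the Hoxa and Hoxd clusters, in the distal limb. Their promoters are rich in CpG, and Polycomb and Trithorax complexes are known to hold them silent or active long after the embryo, so adult muscle still expresses some of them according to its place in the body.

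Sedentary sample 3 was the shallowest library, with 9153526 calls in all, and sedentary sample 2 the deepest, with 18656340. The Hox positions took 24791 calls in sedentary sample 3 and up to 47113 in exercised sample 2, and their median coverage per position ran from 31 to 57 reads. Of 18 skeletal muscle marker genes listed, 3 had a region: Actn2, which anchors actin at the Z-disc, averaged 0.641% in exercised and 1.58% in sedentary samples, Des (desmin) 28.8% and 27.3%, and Acta1 (skeletal actin) 73.7% and 71.0%. The table holds methylation and no expression, so it does not show by itself that the tissue is muscle.

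Promoter sequences are shown for the 3 Hox regions whose measured positions could be placed on a RefSeq promoter, because they show at which letters the methylated calls lie. Of the 28 genes, 15 had a promoter entry, and 3 of their regions had at least 5 positions inside it with at least 90% on a CpG. Coordinates are those of GRCm38.p6, strand +, and each run is part of a window from 250 bases before to 50 after the start. Capitals mark every base at which a methylation level was deposited, a C on the strand shown or a G where the C of the opposite strand was read.
Hoxd1, chr2:74762913-74763001: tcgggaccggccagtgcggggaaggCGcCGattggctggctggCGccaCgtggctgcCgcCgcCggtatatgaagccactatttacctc
Hoxd9, chr2:74697545-74697812: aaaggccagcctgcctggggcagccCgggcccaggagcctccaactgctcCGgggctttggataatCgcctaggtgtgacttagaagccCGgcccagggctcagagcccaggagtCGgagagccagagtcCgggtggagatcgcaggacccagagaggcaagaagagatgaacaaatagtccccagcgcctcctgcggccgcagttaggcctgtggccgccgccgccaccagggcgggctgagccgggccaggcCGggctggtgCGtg
Hoxd11, chr2:74682304-74682372: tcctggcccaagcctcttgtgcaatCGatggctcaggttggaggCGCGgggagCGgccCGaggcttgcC

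In these 3 promoters the level of a CpG went with the letters on either side of it. Counting bases from 1 at the left of each run, the only Hoxd1 position inside CCGG, the MspI recognition sequence, was base 64. It was methylated in 100%, 98.6% and 97.7% of calls in exercised samples 1 to 3 and in 100%, 100% and 100% in sedentary samples 1 to 3. The 9 other Hoxd1 positions averaged 3.21%, from 0.379% at base 58 to 10.5% at base 27, where sedentary sample 3 stood alone at 37.5% of 16 reads. All 6 samples were therefore high at the CCGG position and low at the CpGs around it.

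Hoxd9 held 8 measured positions in CCGG, with a mean of 62.1%, and 5 in other CpGs, with a mean of 4.18%. Bases 131 and 256 were read as methylated in 100% of calls in all 6 samples. At base 256 the strand neighbour, base 255, averaged 26.2%, from 16.2% in sedentary sample 1 to 38.5% in exercised sample 1 and sedentary sample 3. The C and the G of that CCGG thus differed far more than the samples did. At base 26 the level was 0% in exercised samples 1 and 3 and in sedentary sample 3, and 32.1%, 44.6% and 40.0% in exercised sample 2 and sedentary samples 1 and 2, so samples of both groups lay at either end.

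Hoxd11 held no measured CCGG, and its high positions lay in TCGA, the TaqI recognition sequence. Base 26 read 30.0%, 23.3% and 28.6% in exercised and 21.5%, 22.8% and 18.9% in sedentary samples. Base 27, on the other strand of the same CpG, read 80.0%, 96.0% and 84.6% in exercised and 81.0%, 66.7% and 76.5% in sedentary samples. At base 26 every exercised sample stood above every sedentary sample, and at base 27 the groups overlapped. The 8 other CpG positions averaged 3.84%. The last base of the Hoxd11 run, base 69 at 88.4%, lies at the edge of the window and its context was not read.

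**Figure D1:**
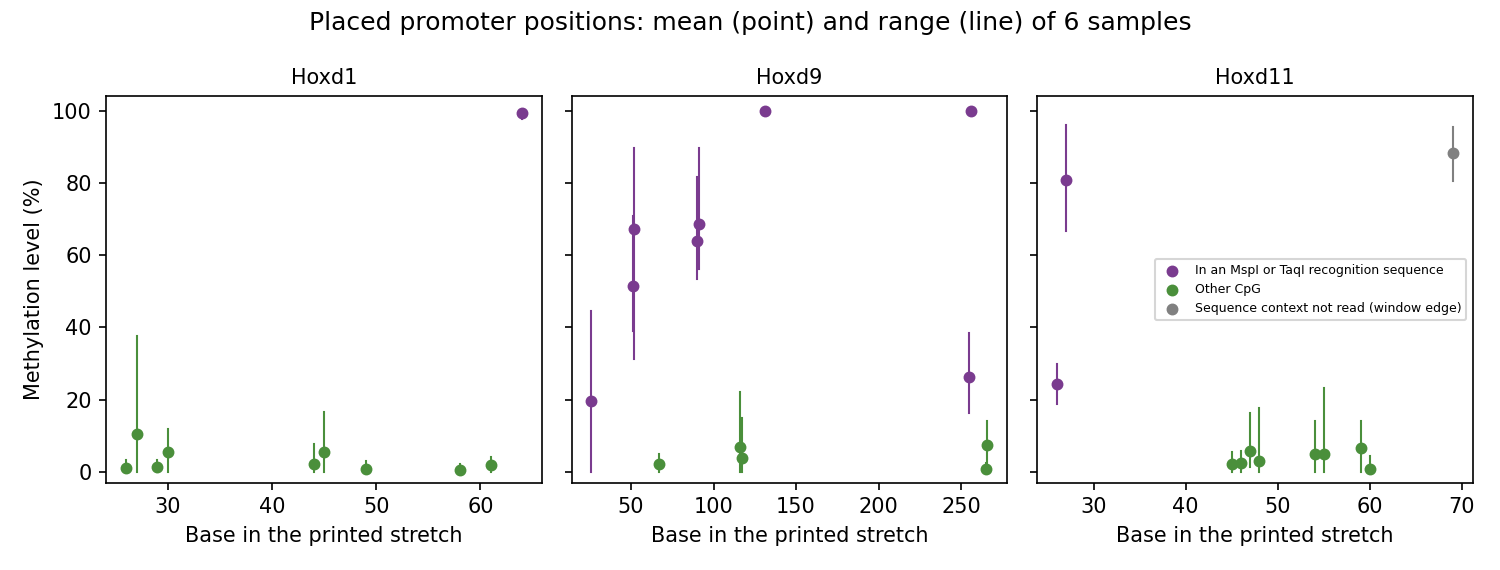
Methylation level (%) of each measured base of the Hoxd1, Hoxd9 and Hoxd11 promoter stretches against its place in the stretch. Points are means and lines the range of the 6 samples: purple points in recognition sequences of MspI or TaqI average 63.8%, green points at other CpGs 3.66%.

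The 2 motifs searched were CCGG and TCGA, which read the same on both strands and, by their letters, cannot overlap each other. Over the 3 Hox promoters, 11 positions in either motif averaged 63.8% (from 19.5% to 100%), and 22 positions in other CpGs averaged 3.66% (from 0.379% to 10.5%). The contrast was not particular to Hox genes. Over 2372 matched regions of the whole table, 8640 positions in CCGG averaged 61.1%, 833 in TCGA 61.0% and 25450 in other CpGs 2.27%. Each of the 14 other letter pairs around a CpG averaged between 1.95% and 3.26%. Of 32851 RefSeq promoters of this length, 52.8% held CCGG and 22% TCGA, so a match describes the letters and marks no regulatory site. What sets the level at these letters was not tested.

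This bears on every Hox level below, because a region's level is a mixture of a few high positions and many low ones. Of the 691 Hox positions, 284 (41.1%) averaged 10% or more, against 30.8% of the positions in all regions tested. A position is called stand-alone here when it averaged 10% or more while the median of at least 3 other positions within 100 bp, the adjacent base left out, was under 10%. Stand-alone positions made up 155 of the 284 Hox positions at 10% or more (54.6%), against 81.4% over all regions. Adjacent bases, taken as the strands of 1 CpG without reading the letters, were both measured in 255 Hox pairs. In 50 of these pairs (19.6%) the levels differed by 50 points or more, against 20.1% of 89436 pairs in all. For these reasons each level is given in 3 ways where it matters: as a mean, as a median over positions, and as a mean without stand-alone positions.

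A larger share of Hox regions than of all regions had a median position at 10% or more. The median position was under 10% in 19 of the 29 Hox regions (65.5%), against 80.8% of all regions tested. Positions between 10% and 90% made up 28.9% of the Hox positions and 18.7% of all positions, while positions at 90% or more made up 12.2% and 12.3%. These shares describe the regions, whose positions share libraries, and carry no test. The 10 regions with a median of 10% or more were Hoxa2, Hoxa5, Hoxa11, Hoxb1, Hoxb3, Hoxb5, Hoxb13, Hoxc4, Hoxc6 and Hoxc8. Of these, Hoxb5 and Hoxc4 hold 3 positions, Hoxa11 and Hoxb1 4 and Hoxc6 5, so few positions set their medians. None of the 10 was placed on promoter letters.

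**Figure D2:**
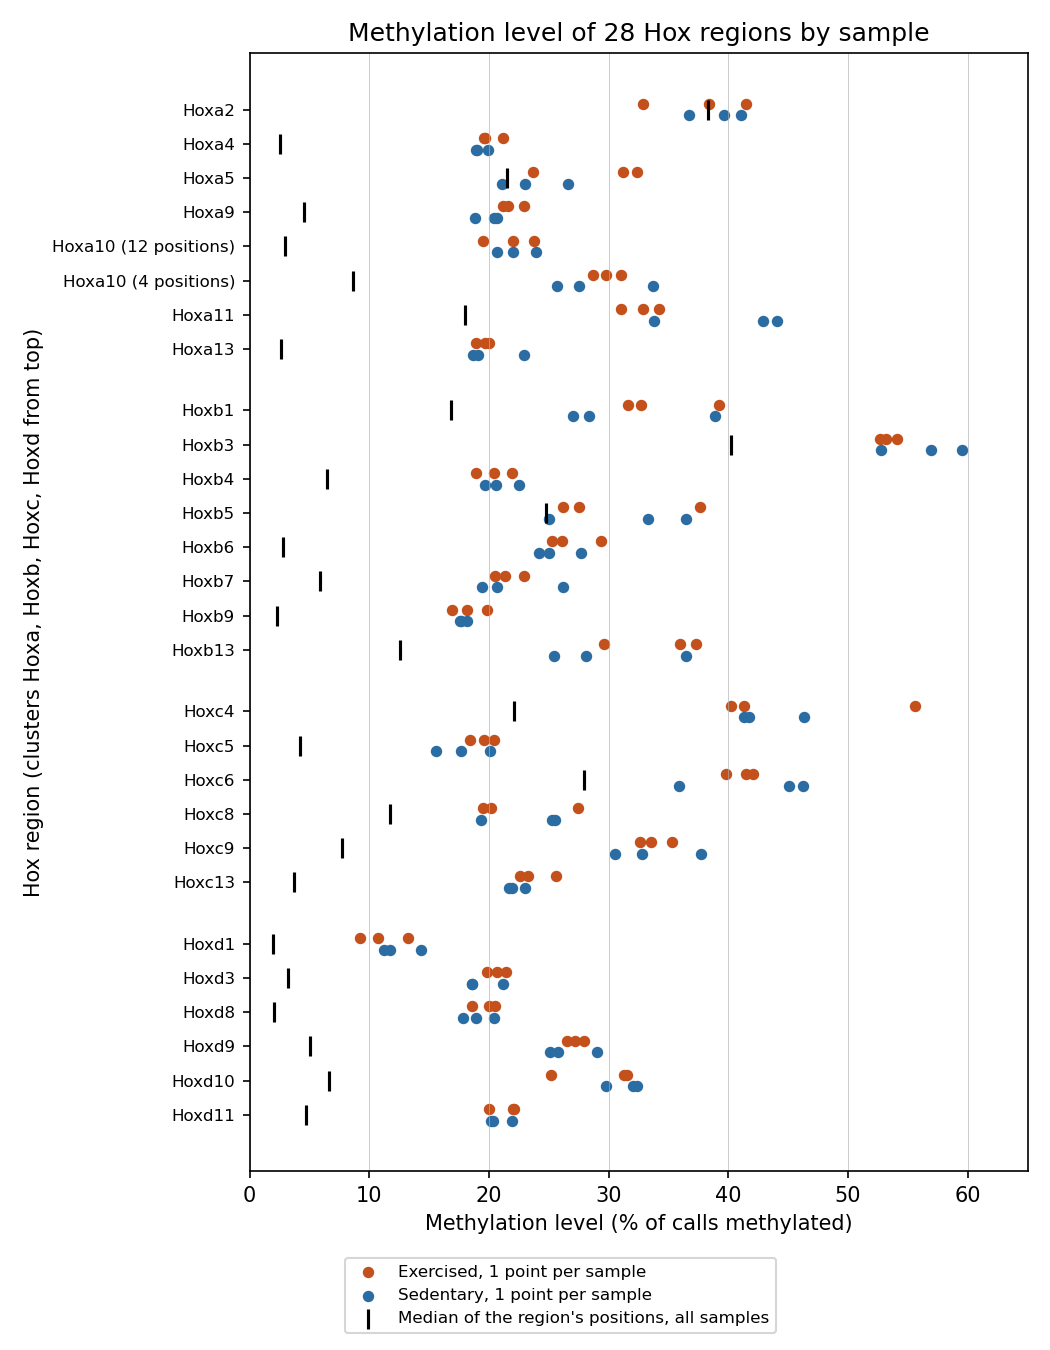
Methylation level (% of calls) of 28 of the 29 Hox regions in 3 exercised and 3 sedentary samples, by cluster, with the median of its positions as a black line. Hoxb3, Hoxc4, Hoxc6 and Hoxa2 stand highest and Hoxd1 lowest, and most of the medians lie under 10% while the levels lie near 20%.

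Region levels here are the share of all calls in the region that were methylated. Hoxb3, an anterior gene that takes part in patterning the hindbrain, had the highest level of the 29. Its region on chromosome 11 (mm9, 96203083 to 96206082) read 52.7%, 54.1% and 53.2% in exercised and 59.5%, 52.8% and 56.9% in sedentary samples. Exercised samples lay closer together than sedentary samples, with exercised sample 1 just under the lowest sedentary sample, and the groups overlapped. All 12 Hoxb3 positions, 385 to 887 bp after the start, averaged 24.6% or more, and 2 of them 98% or more.

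Hoxc4, a central gene of the cervical and brachial levels, followed at 44.4%. It read 55.6%, 40.2% and 41.3% in exercised and 41.7%, 41.3% and 46.3% in sedentary samples, so exercised sample 1 stood above all others. Only 3 positions carry this level, the lowest of them at 11.0%. Hoxc6, which acts at thoracic levels and in the forelimb, was next at 41.8%, with 42.1%, 41.5% and 39.8% in exercised and 46.2%, 35.9% and 45.1% in sedentary samples. Its 5 positions ran from 20.9% to 87.3%, and the groups overlapped.

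Hoxa2, the gene that gives the second pharyngeal arch its identity, averaged 38.4% over 33 positions. It read 41.5%, 38.4% and 32.9% in exercised and 39.6%, 36.7% and 41.1% in sedentary samples, with exercised samples at both ends of the range. Its median position stood at 38.3%, so the level did not rest on a few high positions: 30 of 33 positions averaged 10% or more and none of them was stand-alone. Hoxb3 and Hoxa2 were the regions with the highest medians, at 40.2% and 38.3%.

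The lowest level belonged to Hoxd1 (chromosome 2, 74599037 to 74602036 in mm9), an anterior gene whose 10 measured positions lie in the promoter run printed above. It read 9.24%, 13.2% and 10.7% in exercised and 11.2%, 11.7% and 14.3% in sedentary samples. Only 4.29% of all regions had a lower level. Hoxb9, a posterior gene of the thorax, came next at 18.1%, with 18.2%, 19.8% and 16.9% in exercised and 18.2%, 17.6% and 17.7% in sedentary samples. Hoxc5, a central gene, stood at 18.6%, with 19.6%, 20.4% and 18.4% in exercised and 17.7%, 20.1% and 15.6% in sedentary samples. In Hoxd1, Hoxb9 and Hoxc5 the groups overlapped, and the median positions were at 1.94%, 2.28% and 4.23%.

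Along the order of levels, neighbours mostly differed by less than the samples did. Hoxb3 was apart from Hoxc4 in most samples, since its lowest sample (52.7%) exceeded every Hoxc4 sample but exercised sample 1. Hoxd1 was apart at the other end, its highest sample (14.3%) lying under the lowest of Hoxb9 (16.9%). Between them, Hoxc4 at 44.4% and Hoxc6 at 41.8% overlapped, as did Hoxa4 at 19.7%, Hoxa13 at 19.9%, Hoxd3 at 20.1% and Hoxb4 at 20.7%.

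**Figure D3:**
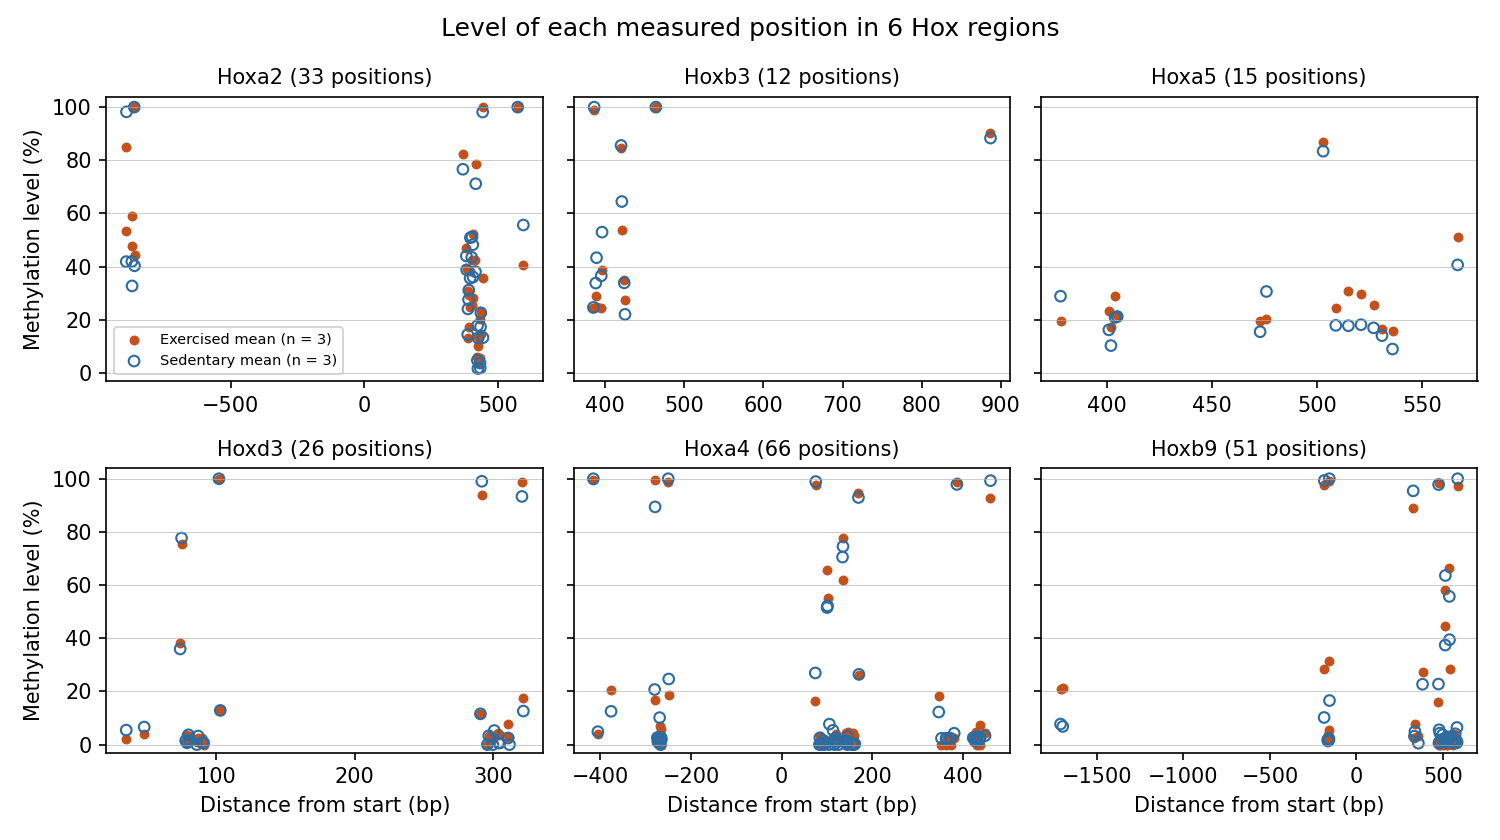
Level of each measured position against its distance from the transcript start, as the mean of 3 exercised (filled) and 3 sedentary (open) samples. Hoxa2, Hoxb3 and Hoxa5 hold mostly intermediate positions, with a few near 100% in Hoxa2 and Hoxb3, while Hoxd3, Hoxa4 and Hoxb9 hold a floor of low positions with a few near 100%.

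Other regions lay between these profiles. In Hoxa5, which patterns the neck, the lung and the upper trunk, all 15 positions averaged 12.4% or more, 14 of them between 12.4% and 45.9%, and none was stand-alone. In Hoxa4, of 66 positions 17 averaged 10% or more and 15 of these were stand-alone; its level without them was 4.23%. The same removal left 2.02% in Hoxb9, 2.05% in Hoxb6, 2.44% in Hoxd3, 2.66% in Hoxb4 and 3.11% in Hoxd11. Hoxd9 and Hoxc9 kept 19.0% and 29.3%. None of the 8 Hoxd9 positions placed in CCGG above, which average 62.1%, counted as stand-alone, so they remain in its level. In Hoxb5 and Hoxc4, with 3 positions, and in the second Hoxa10 region, with 4, the removal could not be judged or left too few positions.

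The Hoxd cluster had the lowest level of the 4 clusters in each of the 6 samples. The mean over its positions was 20.7%, 21.8% and 21.5% in exercised and 21.7%, 21.0% and 22.2% in sedentary samples. The Hoxa cluster read 24.9%, 24.8% and 22.6% in exercised and 23.6%, 22.7% and 23.8% in sedentary samples. Hoxa was above Hoxd in 6 of 6 samples, by a mean of 2.23 points (SD 1.12 over samples). This lead lay in the anterior positions, which averaged 30.7% in Hoxa and 17.1% in Hoxd. Central positions (groups 4 to 8) averaged 19.2% in Hoxa and 20.1% in Hoxd, and posterior positions 21.6% and 24%.

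The Hoxb cluster read 24.6%, 24.8% and 24.9% in exercised and 26%, 24.3% and 26.1% in sedentary samples. The Hoxc cluster read 27.9%, 26.1% and 25.5% in exercised and 24.1%, 26.4% and 24.3% in sedentary samples. Hoxb exceeded Hoxd by 3.64 points (SD 0.483) and Hoxc exceeded it by 4.24 points (SD 1.91), each in 6 of 6 samples. Hoxb and Hoxc did not keep an order between them: Hoxc was the higher in 4 samples and Hoxb in 2.

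Without stand-alone positions Hoxd stood at 10.1%, against 15.4% in Hoxa, 12.7% in Hoxb and 14.3% in Hoxc. As medians they stood at 3.30% against 6.46%, 5.53% and 5.63%, and Hoxd was lowest in 6 of 6 samples by both. The removal takes high positions only from among low ones, so it is no independent check of this order. Stand-alone positions made up 68.1% of Hoxd positions at 10% or more, against 42.3% in Hoxa, 61.1% in Hoxb and 50% in Hoxc. Without stand-alone positions, anterior Hoxa positions averaged 26.6% and anterior Hoxd positions 2.34%. By that measure the central (9.39%) and posterior (8.55%) Hoxa positions were below those of Hoxd (12.5% and 11%). Hoxa2, at a level of 38.4%, holds 33 of the 70 anterior Hoxa positions, and none of these 33 was stand-alone. The clusters were not compared without Hoxa2, so the place of Hoxd below Hoxa may rest on that gene. All 6 Hoxd regions had a median position under 10%, as had 6 of 9 in Hoxa, 4 of 8 in Hoxb and 3 of 6 in Hoxc. The order of the other 3 clusters turned with the measure: by the mean, Hoxa was below Hoxc in 6 of 6 samples, and without stand-alone positions it was above Hoxc in 5 of 6. The clusters share libraries, so these are orders within samples and no test was made.

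**Figure D4:**
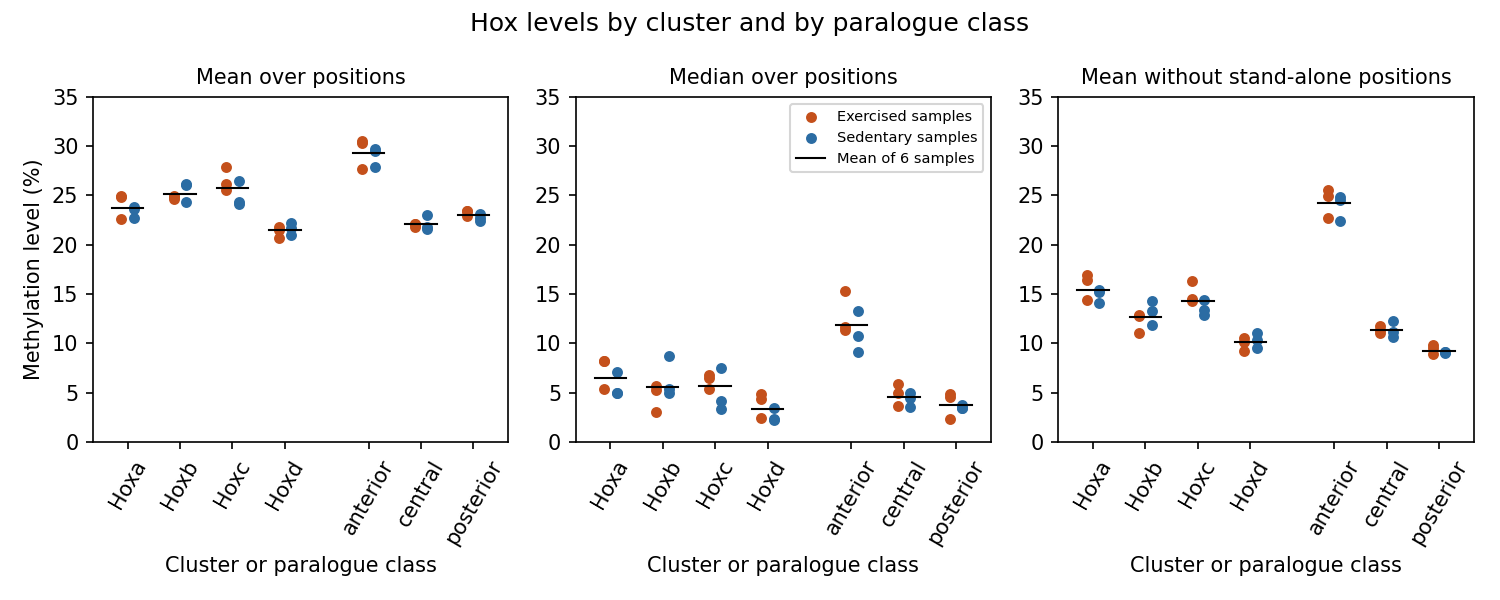
Methylation level (%) of the 4 clusters and 3 paralogue classes in each exercised and sedentary sample, as the mean, the median and the mean without stand-alone positions. The anterior class averages 29.3%, 11.9% and 24.2% in the 3 panels, above the central and posterior classes, and Hoxd is the lowest cluster in each panel.

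By paralogue number, the anterior groups (1 to 3) stood above the central (4 to 8) and posterior (9 to 13) groups. The 122 anterior positions averaged 30.3%, 30.5% and 27.7% in exercised and 29.5%, 27.9% and 29.7% in sedentary samples. The 291 central positions averaged 22.1%, 22.1% and 21.8% in exercised and 21.8%, 21.6% and 23.0% in sedentary samples. The 278 posterior positions averaged 23.4%, 23.4% and 22.9% in exercised and 23.1%, 22.7% and 22.4% in sedentary samples. Anterior exceeded central by 7.18 points (SD 1.05 over samples) and posterior by 6.29 points (SD 1.04), in 6 of 6 samples each.

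The anterior excess rested on 2 genes, Hoxa2 and Hoxb3. With Hoxa2 left out the anterior mean was 25.0% and its median 5.24%, and with Hoxb3 left out 26.5% and 8.47%. With both left out it fell to 20.3%, below the central and posterior means in 6 of 6 samples. Without stand-alone positions the same omission took the anterior level from 24.2% to 8.59%. By cluster, the anterior positions averaged 50.2% in Hoxb, 30.7% in Hoxa and 17.1% in Hoxd.

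Paralogues of the same number stood at different levels. In group 1, Hoxb1 stood at 33.0% and Hoxd1 at 11.7%. In group 3, Hoxb3 stood at 54.9% and Hoxd3 at 20.1%. In group 4, Hoxc4 at 44.4% contrasted with Hoxa4 at 19.7% and Hoxb4 at 20.7%. In group 9, Hoxa9 at 20.9%, Hoxb9 at 18.1%, Hoxd9 at 26.9% and Hoxc9 at 33.7% lay closer together. The regions of 1 group were not measured at the same distance from the start, and these differences were not tested.

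Central and posterior groups had no stable order. By the mean, posterior was above central in 5 of 6 samples. Without stand-alone positions central (11.4%) was above posterior (9.25%) in 6 of 6. Of posterior positions at 10% or more, 75.0% were stand-alone, against 53.4% of central and 26.5% of anterior ones.

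Taken as a set, the Hox positions differed between the groups by less than the samples did. The mean over all 691 positions was 24.1%, 24.1% and 23.3% in exercised and 23.7%, 23.1% and 24.0% in sedentary samples. The group means of 23.8% ± 0.457 and 23.6% ± 0.422 (SD, n = 3 each) differed by 0.218 points, less than either SD, and the groups overlapped. Over the 3 exercised samples the median position averaged 5.24% ± 1.23 (SD), and over the 3 sedentary samples 4.56% ± 0.345, again overlapping.

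No Hox region passed edgeR's quasi-likelihood test with Benjamini-Hochberg adjustment, where every Hox region had an adjusted p of 1.0. The background for this count is 0% of 10021 regions. At an unadjusted p under 0.05 there was 1 Hox region of 29, against a background of 2.37% of all regions. With limma on log ratios there were 0 Hox regions after adjustment and 1 before it, the same region. Of the 29 regions 17 were higher and 12 lower in exercised samples, with a median difference of 0.456 points. Over all 10021 regions, 61% were higher and the median difference was 0.390 points. In 1 Hox region the groups did not overlap, with exercised above, against a background of 7.25%, made of 4.91% with exercised above and 2.35% with exercised below. All of these Hox counts lie near their background.

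**Figure D5:**
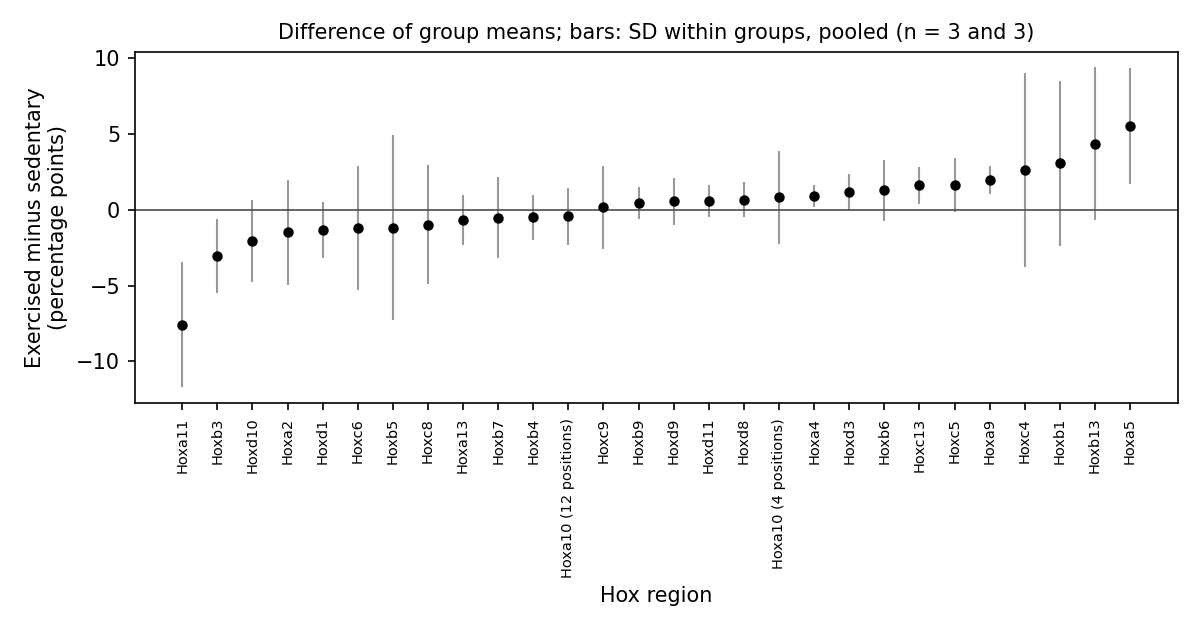
Difference of group means (exercised minus sedentary, percentage points) for 28 of the 29 Hox regions, in order of size, with bars for the SD within groups, pooled over 3 and 3 samples. Hoxa11 at -7.58 and Hoxa5 at 5.52 are the ends of the range, and most bars cross 0.

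Hoxa11, a posterior gene that patterns the forearm and lower leg and has been studied in muscle progenitors of the limb, had the largest drop and the smallest p. It read 34.2%, 31.0% and 32.9% in exercised and 42.9%, 44.1% and 33.8% in sedentary samples. Exercised sample 1 lay above sedentary sample 3, so the groups overlapped. The means were 32.7% ± 1.62 and 40.3% ± 5.61 (SD, n = 3 each), a difference of -7.58 points. The unadjusted p was 0.0281 and the adjusted p 1.0 in edgeR's quasi-likelihood test with Benjamini-Hochberg adjustment. The region holds 4 positions, 503 to 531 bp after the start, 2 higher and 2 lower in exercised samples. With 1 sample left out the difference ranged from -5.69 points (without sedentary sample 2) to -10.8 (without sedentary sample 3). In edgeR's test its unadjusted p was then 0.0117 without sedentary sample 3, 0.032 without exercised sample 1 and 0.0496 without exercised sample 3. In the same test that p was 0.106 without sedentary sample 2, 0.0845 without sedentary sample 1 and 0.112 without exercised sample 2. Fitted with stand-alone positions removed from all regions, it was 0.19 at the same difference.

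The position of Hoxa11 at 52195244 (chromosome 6, mm9) read 2.08%, 1.67% and 0% in exercised and 19.4%, 5.88% and 13.3% in sedentary samples, so the groups did not overlap there. Its coverage was 48, 60 and 21 reads in exercised and 36, 34 and 15 reads in sedentary samples. In edgeR's test its unadjusted p was 0.0497.

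Hoxa5 had the largest rise and the second-smallest p of the 29. It read 31.2%, 32.4% and 23.7% in exercised and 26.6%, 21.1% and 23.0% in sedentary samples. Exercised samples 1 and 2 were above all sedentary samples, and exercised sample 3 was among them. The means were 29.1% ± 4.68 and 23.6% ± 2.79 (SD, n = 3 each), a difference of 5.52 points with an unadjusted p of 0.0555 in edgeR's test. Of its 15 positions 13 were higher and 2 lower in exercised samples, none of them past an unadjusted p of 0.05. Neighbouring positions share fragments, so they are not independent of each other. With 1 sample left out the difference ranged from 3.87 points (without exercised sample 2) to 8.20 (without exercised sample 3).

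Hoxb13, the most posterior Hoxb gene, read 37.3%, 36.0% and 29.6% in exercised and 36.5%, 25.4% and 28.1% in sedentary samples, so that the group means were 4.34 points apart. Hoxb1 read 39.2%, 31.6% and 32.7% in exercised and 38.9%, 28.4% and 27.0% in sedentary samples, so that the group means were 3.07 points apart. In both, sedentary sample 1 lay among the exercised samples. With positions under 20 reads left out, the Hoxb13 difference turned to -1.17 points and the Hoxb1 difference was 0.712. With 1 sample left out, Hoxb13 ranged from 2.05 points (without sedentary sample 2) to 7.59 (without sedentary sample 1). Hoxb1 was 0.728 points without exercised sample 1, 0.845 without sedentary sample 3 and 6.82 without sedentary sample 1.

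On the lower side, Hoxb3 differed by -3.06 points and Hoxd10 by -2.07. With positions under 20 reads left out, Hoxb3 differed by -11.5 points, and without sedentary sample 1 by -1.51. Hoxd10, a posterior gene that takes part in hindlimb motor neuron identity, read 25.2%, 31.3% and 31.5% in exercised and 32.0%, 32.4% and 29.8% in sedentary samples. Exercised sample 1 was the low sample, and the other two lay among the sedentary ones. Without it the Hoxd10 difference was -0.00949 points.

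Hoxa9, a posterior gene known for its part in blood stem cells and in the response of muscle stem cells with age, was the region whose groups did not overlap. It read 22.9%, 21.2% and 21.6% in exercised and 18.8%, 20.4% and 20.7% in sedentary samples. The means of 21.9% ± 0.856 and 20% ± 1.01 (SD, n = 3 each) differed by 1.95 points, with an unadjusted p of 0.151 in edgeR's test. With stand-alone positions removed the difference was 0.958 points and that p 0.534 in edgeR's test. Its 22 positions lie -1888 to -1807 bp from the start, that is upstream of the gene, and 16 of them were higher and 5 lower in exercised samples.

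The spread between replicates set the scale of these differences. The median SD within groups was 2.02 points over Hox regions and 1.96 over all regions, and the median size of the difference was 1.19 points and 1.06 points. Both Hoxa10 regions differed by less than 1 point: the region with 12 positions, at a level of 22%, by -0.437 and the region with 4, at 29.4%, by 0.831.

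The other regions reported, whose groups all overlapped, are given here by their difference. In the Hoxa cluster, Hoxa2 differed by -1.50 points, Hoxa4 by 0.906 and Hoxa13, a gene of the digits, by -0.675. In the Hoxb cluster, Hoxb4 differed by -0.499, Hoxb5 by -1.19, Hoxb6 (level 26.3%) by 1.29, Hoxb7 (21.8%) by -0.519 and Hoxb9 by 0.456. In the Hoxc cluster, Hoxc4 differed by 2.60, Hoxc5 by 1.64, Hoxc6 by -1.21, Hoxc8 (22.9%) by -0.976, Hoxc9 by 0.148 and Hoxc13 (23%), which is expressed in hair follicles and nails, by 1.61. In the Hoxd cluster, Hoxd1 differed by -1.34, Hoxd3 by 1.19, Hoxd8 (19.4%) by 0.652, Hoxd9 by 0.547 and Hoxd11 (21.1%), which acts with Hoxa11 in the forearm, by 0.577. No cluster moved in 1 direction: 5 of 9 Hoxa, 4 of 8 Hoxb, 4 of 6 Hoxc and 4 of 6 Hoxd regions were higher in exercised samples. Nor did a paralogue class, with 3 of 6 anterior, 6 of 11 central and 8 of 12 posterior regions higher.

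Single Hox positions gave no call either. Of 671 tested, none passed edgeR's quasi-likelihood test with Benjamini-Hochberg adjustment, where the smallest adjusted p was 0.919, and the background was 0% of 253960 positions. At an unadjusted p under 0.05 there were 28 Hox positions (4.17%), 18 higher and 10 lower, against a background of 3.32%, made of 1.9% higher and 1.41% lower. They came from 13 genes, 11 in Hoxa, 9 in Hoxb, 4 in Hoxc and 4 in Hoxd. Of these 28, 21 averaged under 10%, and 12 of the 18 higher ones read 0% in all 3 sedentary samples. By the p in the authors' deposited table, 26 Hox positions were under 0.05, where the background was 3.13%.

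Among those 28, 2 of the 3 largest rises were in Hoxa2. Position 52114397 of Hoxa2 (chromosome 6, mm9) read 25.5%, 22.1% and 13.6% in exercised and 9.09%, 2.13% and 0% in sedentary samples, without overlap. Position 52114405 of Hoxa2 read 6.38%, 26% and 8.20% in exercised and 0%, 0% and 5% in sedentary samples, also without overlap and with exercised sample 2 highest.

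Hoxa2 also held the position with the largest class the authors gave to a Hox gene. In the authors' deposited table, position 52114433 was classed as strongly hypomethylated, with a p of 0.0445. The difference of its group means, computed here from the counts, was -26 points. The strong classes of both directions together hold 0.211% of the positions tested. In edgeR's test this position was not among the 28 Hox positions with an unadjusted p under 0.05. It read 25.0%, 21.2% and 28.4% in exercised and 43.8%, 40.6% and 68.3% in sedentary samples, so the groups did not overlap. The adjacent base, taken as the other strand of the same CpG, differed by 2.70 points in the opposite direction. Over the 33 Hoxa2 positions, 20 were higher and 11 lower, with differences from -26 to 26.3 points.

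Among the 28 positions with an unadjusted p under 0.05, the 2 largest falls were in Hoxb7, a central gene of the trunk, and in each of them 1 sample carried most of the difference. Position 96148225 (chromosome 11, mm9) read 0%, 1.32% and 0% in exercised and 65.8%, 0% and 2.94% in sedentary samples, so sedentary sample 1 alone was high. Position 96147874 read 1.49%, 1.96% and 1.61% in exercised and 6.00%, 6.41% and 47.4% in sedentary samples. There the groups did not overlap, and sedentary sample 3 carried most of the difference of -18.2 points.

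The proteins that work with Hox factors and the complexes that act on the clusters were read from the same fit, with 0 regions past the adjusted threshold in each list, as over the whole table. TALE homeodomain cofactors, which bind DNA together with Hox proteins, had 8 regions, 4 higher and 4 lower, with a median difference of 0.324 points. Meis1 differed by -6.81 points, with 30.7%, 28.5% and 32.1% in exercised and 34.7%, 33.0% and 44.1% in sedentary samples, without overlap and with an unadjusted p of 0.0407 in edgeR's test. Meis3 differed by 3.03 points, also without overlap. The groups thus did not overlap in 2 of 8 regions, where the background is 7.25%. In edgeR's test 1 of the 8 had an unadjusted p under 0.05, where the background is 2.37%.

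Upstream regulators, which set Hox expression in the embryo, had 15 regions, 10 higher and 5 lower, with a median difference of 0.823 points. Aldh1a2, which makes retinoic acid, differed by 5.97 points, with an unadjusted p of 0.0282 in edgeR's test. It read 25.7%, 33.7% and 25.1% in exercised and 20%, 21.5% and 25.2% in sedentary samples. There exercised sample 3 fell just under sedentary sample 3. Of the 15 regions 1 had an unadjusted p under 0.05 in that test, and 0 were without overlap. Cdx2 differed by 2.13 points. Polycomb group genes, which keep silent Hox genes silent, had 26 regions: 16 were higher, 10 were lower and the median difference was 0.261 points. The smallest p among them belonged to Ezh1, an H3K27 methyltransferase, at 3.04 points and Kdm6a, a demethylase of the same residue listed with them, at 3.23 points. In these 2 of the 26 regions the groups did not overlap, where the background is 7.25%. In edgeR's test 0 of the 26 had an unadjusted p under 0.05. Trithorax genes, which keep active Hox genes active, had 5 regions: 3 were higher, 2 were lower and the median difference was 0.946 points, with Kmt2d at 1.54 and Ash2l at 0.946.

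Of 16 genes listed as flanking the clusters, 6 had a region, 2 of them higher and 4 lower. In 3 of the 6 the unadjusted p was under 0.05 in edgeR's test, where the background is 2.37%. Nfe2l1, near the Hoxb cluster and coding for a transcription factor of proteasome genes, read 30.5%, 25.8% and 22.4% in exercised and 20%, 19.1% and 19.7% in sedentary samples. Snx11, a sorting nexin gene near the same cluster, read 27.7%, 28.4% and 24.3% in exercised and 23.5%, 20.4% and 20.4% in sedentary samples. Evx1, a homeobox gene at the posterior end of Hoxa, was named after its values were seen and read 43.4%, 46.9% and 44.7% in exercised and 51.3%, 49.0% and 56.3% in sedentary samples. In each of the 3 the groups did not overlap, where the background is 7.25% of all regions. Each had an adjusted p of 1.0 in edgeR's quasi-likelihood test with Benjamini-Hochberg adjustment. With 6 regions, some of them near the same cluster, the list was not tested as a set. The flanking regions not past an unadjusted p of 0.05 were Skap2 at -4.75 points, Lnpk at -1.59 and Skap1 at -0.891.

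Markers of other cells in the muscle had few regions, and their part in the Hox levels was not tested. The summaries are 4 adipocyte regions with a median difference of -5.76 points, 5 endothelial with -1.55, 3 fibroblast with 2.01, 2 leukocyte with -1.06, 3 nerve and Schwann cell with -0.476, and 3 smooth muscle and pericyte regions with 0.938. None of these regions passed after adjustment in edgeR's test, and 1 did before it, the adipocyte-list gene Slc2a5 at -8.50 points.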

How the data were processed

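Methylation was measured by RRBS in 6 samples, 3 per group. The submitters' processing notes list build mm9 and the tools Bismark 0.7.7, Bowtie 0.12.9, cutadapt 1.0 and Trim Galore 0.2.5, with their roles not given in the sources used here. The authors deposited, for each position and sample, the methylated fraction and the count of covering reads (at least 10), and per position a score of the difference of group means, an unadjusted p-value and a class. The fraction times the coverage was whole within 0.00236 of a read, which gave methylated and unmethylated counts. Symbols came from a RefSeq table (10655 of 10755 transcripts matched).

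Regions run from 2000 bp before a RefSeq start over 3000 bp, a placement inferred from the table and compared with promoter letters. There 78.1% of positions fell on a CpG, against 46.4% and 48.0% when shifted by 1 base. Where several promoter entries fitted a region, the one with the largest unshifted share was used. That choice favours the 78.1%, so the comparison is not an independent check. Counts were summed over regions with at least 3 positions and tested with edgeR 4.0.16 (R 4.3.3; quasi-likelihood, a term per sample and a group term, Benjamini-Hochberg over all regions or positions, threshold 0.05); the script was tested on simulated data. Alternatives were coverage of at least 20, a cap at the 99.9 percentile of coverage, stand-alone positions removed, strands merged, at least 5 positions, limma 3.58.1 on log ratios with 2 reads added, a replicate block, each sample left out, and, added after seeing the data, medians and anterior genes left out. Reads carry no stated molecular identifiers, so no counting interval is given. The text names regions with the 3 largest differences per direction, the 3 highest and lowest levels and the 2 smallest p, positions likewise among those with an unadjusted p under 0.05, and 2 genes per list. For the genes that flank the clusters it names every region. Results of 1 member on its own are not reported here, though it enters every count over the clusters. Members and lists were chosen with earlier results of these data known.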

Additional observations from a re-analysis of the deposited data

How the results depend on the processing

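No Hox region or position, and no region or position of the whole table, passed adjustment in any of the alternatives run, where the smallest adjusted p of a Hox region was 0.804. Regions past an unadjusted p of 0.05, 237 as reported, became 446 without stand-alone positions and 169 to 601 with 1 sample left out, the highest without exercised sample 3. Positions, 8426 as reported, became 1852 with a replicate block and 4440 to 7142 with 1 sample left out, lowest without exercised samples 2 and 3. The labels do not say whether sample numbers pair the samples. Between samples of the same number r was 0.0021, -0.24 and -0.0834 for numbers 1 to 3, which with 3 samples per group cannot decide it. The replicate block gave 204 regions. The Hox difference of 0.218 points was 0.687 as a median and -0.0116 to 0.482 with 1 sample left out. Of the 28 Hox regions reported singly, 15 changed sign at least once and 13 never did among the settings that move a difference in points, which are the coverage minimum, the removal of stand-alone positions and each sample left out; the cause was not tested.

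Signs changed in these cases, in points. With at least 20 reads, Hoxb13 was -1.17, Hoxb6 -1.28, Hoxc9 -0.397 and Hoxd9 -2.06. Without stand-alone positions, the first Hoxa10 region was 0.465, Hoxa13 0.168, Hoxb7 0.176, Hoxc8 1.15 and Hoxc9 -1.39. With 1 sample left out, differences ranged as follows: Hoxa10 (4 positions) -0.804 to 3.2, Hoxa10 (12 positions) -1.44 to 0.683, Hoxa13 -1.44 to 0.644, Hoxa2 -3.45 to 0.857, Hoxb4 -1.26 to 0.289, Hoxb5 -4.79 to 1.26, Hoxb7 -1.86 to 1.53, Hoxb9 -0.276 to 1.16, Hoxc4 -2.36 to 5.38, Hoxc6 -4.45 to 0.691, Hoxc8 -3.48 to 0.438, Hoxc9 -1.42 to 2.16 and Hoxd9 -0.23 to 1.74.

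Levels moved with the measure by more than the spread between samples. Without stand-alone positions they were 15.4% in Hoxa, 12.7% in Hoxb, 14.3% in Hoxc and 10.1% in Hoxd, and 24.2% in anterior, 11.4% in central and 9.25% in posterior groups. As medians, in the same order, they were 6.46%, 5.53%, 5.63%, 3.30%, 11.9%, 4.59% and 3.73%. With strands merged, Hoxa was 25.5%, Hoxb 27.2%, Hoxc 27.3%, anterior 31.7%, central 23.9% and posterior 23.7%. With at least 20 reads, Hoxb was 24.2%, Hoxd 20.4%, anterior 26.5% and posterior 22%. As a share of pooled reads, Hoxb was 22.8%, Hoxc 23.9%, anterior 27.6%, central 21.1% and posterior 22.5%. As a mean over regions, Hoxa was 26.3%, Hoxb 29.7%, Hoxc 30.7%, central 26.6% and posterior 26.2%. With anterior groups 1 to 4, anterior was 25.2% and central 23.0%. With 1 gene left out, anterior was 25.0% without Hoxa2, 26.5% without Hoxb3, 30.7% without Hoxd1 and 32.1% without Hoxd3, and without Hoxa2 and Hoxb3 it was 20.3%. Leaving out 1 sample gave 23.5% to 23.9% in Hoxa, 24.9% to 25.3% in Hoxb, 25.3% to 26.1% in Hoxc, 21.3% to 21.6% in Hoxd, 29% to 29.6% in anterior, 21.9% to 22.2% in central and 22.9% to 23.1% in posterior groups. Coverage was lowest in sedentary sample 3, and regions with 3 or 4 positions rest on few reads.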
